A study of Rattus norvegicus with 24 samples.

Results

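The genes described here take glucose into a muscle fibre, trap it, and decide how much of the pyruvate made from it is burned in the mitochondrion. They were the 8 genes whose symbol in the deposited transcript table is Slc2a4, Slc2a1, Hk1, Hk2, Pdk2, Pdk4, Pdha1 or Txnip, out of 15273 gene symbols in all, and the transcripts of a gene were summed. RNA was measured in tibialis anterior, a fast muscle of the shin, from 12 adult male Wistar rats, with no gene altered. An implanted pulse generator trained the left muscle daily against the resistance of the co-activated plantarflexors for 2, 10, 20 or 30 days, and the unstimulated right muscle of each rat was its contralateral control, so that each of the 4 time points had 3 trained and 3 untrained muscles. The untrained muscles belonged to animals that carried the implant and had trained the other leg, and muscles were taken 1 h after the last session. The mid-belly was set aside for histology, and RNA came from part of the remaining tissue, with its cells unsorted.

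Glucose enters a muscle fibre through the transporters GLUT4 (Slc2a4), which moves to the surface on insulin or contraction, and GLUT1 (Slc2a1), which is held there for basal uptake. Hexokinase phosphorylates the sugar so that it cannot leave, and TXNIP restrains uptake at the surface. The pyruvate dehydrogenase complex then turns pyruvate into acetyl-CoA, and the kinases PDK2 and PDK4 switch it off by phosphorylating its E1 alpha subunit, PDHA1; Pdk4 is well known to rise in fasted muscle, when fat is the fuel.

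The deposited values sum to the same total in every sample and were taken to be of the TPM type. That they are corrected for transcript length was not tested. They are given here after division by a scaling factor per sample. Comparisons between genes, such as the order and the shares below, rest on that correction. The values keep no read depth, so the precision that depth gives is unknown. In the 12 untrained muscles the mean level was 252 ± 40.4 (SD, n = 12) for Txnip, 218 ± 17.1 for Pdha1, 183 ± 12.03 for Slc2a4, 151 ± 72.2 for Pdk4, 118 ± 9.24 for Pdk2, 25.7 ± 3.55 for Hk2, 1.80 ± 0.203 for Hk1 and 0.619 ± 0.301 for Slc2a1. GLUT4 and hexokinase 2, the muscle forms, thus made up nearly all of their pairs: Slc2a4 was 99.4% to 99.9% of Slc2a4 and Slc2a1 together, and Hk2 was 90.4% to 95.3% of Hk1 and Hk2 together. Neighbours in this order lay within 1 SD of each other for Txnip and Pdha1, for Slc2a4 and Pdk4, and for Pdk4 and Pdk2.

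**Figure D1:**
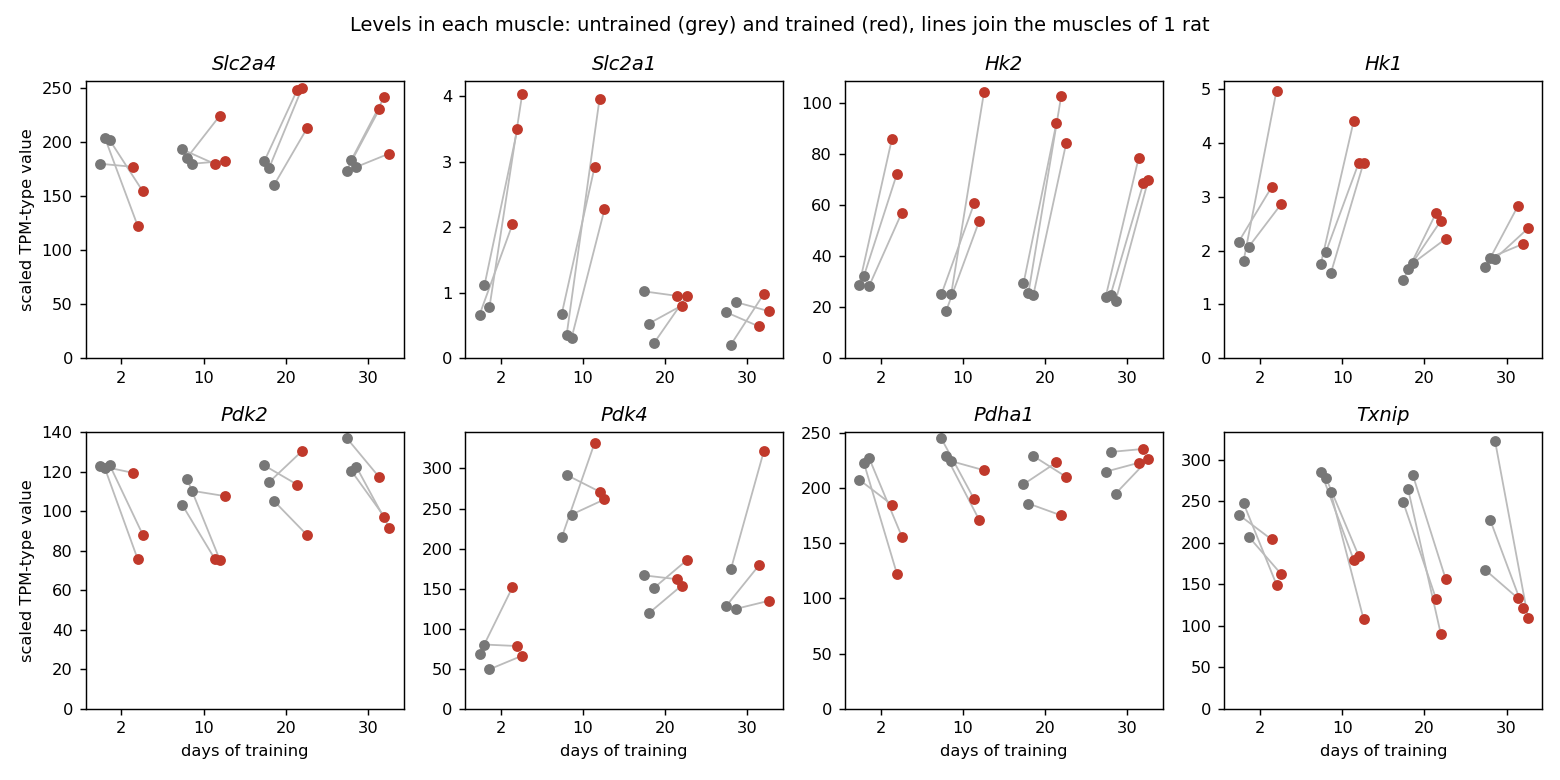
Level of each of the 8 genes (vertical axis, scaled TPM-type value, from 0) in the untrained (grey) and trained (red) tibialis anterior at 2, 10, 20 and 30 days of training (horizontal axis). Each point is 1 muscle and each line joins the 2 muscles of 1 rat; every line rises for Hk2 and Hk1, and every line falls for Txnip.

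Averaged over the 12 rats, trained muscle held more Hk2, Slc2a1, Hk1 and Pdk4 and less Txnip, Pdk2 and Pdha1 than the other leg, while Slc2a4 did not pass the test. Hk2 was 2.90 times its contralateral level on the log2(value + 1) scale, and Txnip was at 0.565 of it. All 8 members passed the filter on low values, which asks for 3 or more samples that reach 1. Slc2a1 reached 1 in 8 of 24 samples and in 2 of 12 untrained muscles. It thus passed only with the trained muscles in which it was high, and it is counted below over 12 pairs and at 2 and 10 days. The members were chosen with earlier results of these data known, so these counts are a description. Of the 8 members, 7 passed an adjusted p of 0.05 over all 12 pairs (limma with rat as a block, adjusted over 11196 genes), where 43.4% of all tested genes did, 21.2% higher and 22.2% lower; 4 of these members were higher and 3 lower. At single time points 4, 4, 3 and 2 members passed at 2, 10, 20 and 30 days, where 21.6% (11.8% higher and 9.8% lower), 20.1%, 17.4% and 12.3% of all genes did. Calls were more frequent among abundant genes, to which all members but Slc2a1 and Hk1 belong. Of 3841 genes with a mean of at least 10, 1409, 1114, 932 and 771 passed at these time points and 1939 over 12 pairs. The change of 0 members passed a test of differences among the 4 time points, as 1.14% of all genes did, and 0 passed between 30 and 2 days, as 2.8% did. At an unadjusted p under 0.05, limma gave 3 members in each of these comparisons, Slc2a4, Slc2a1 and Pdha1. The median change of all genes was between -0.03 and -0.01 on the log2 scale in each of these comparisons.

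**Figure D2:**
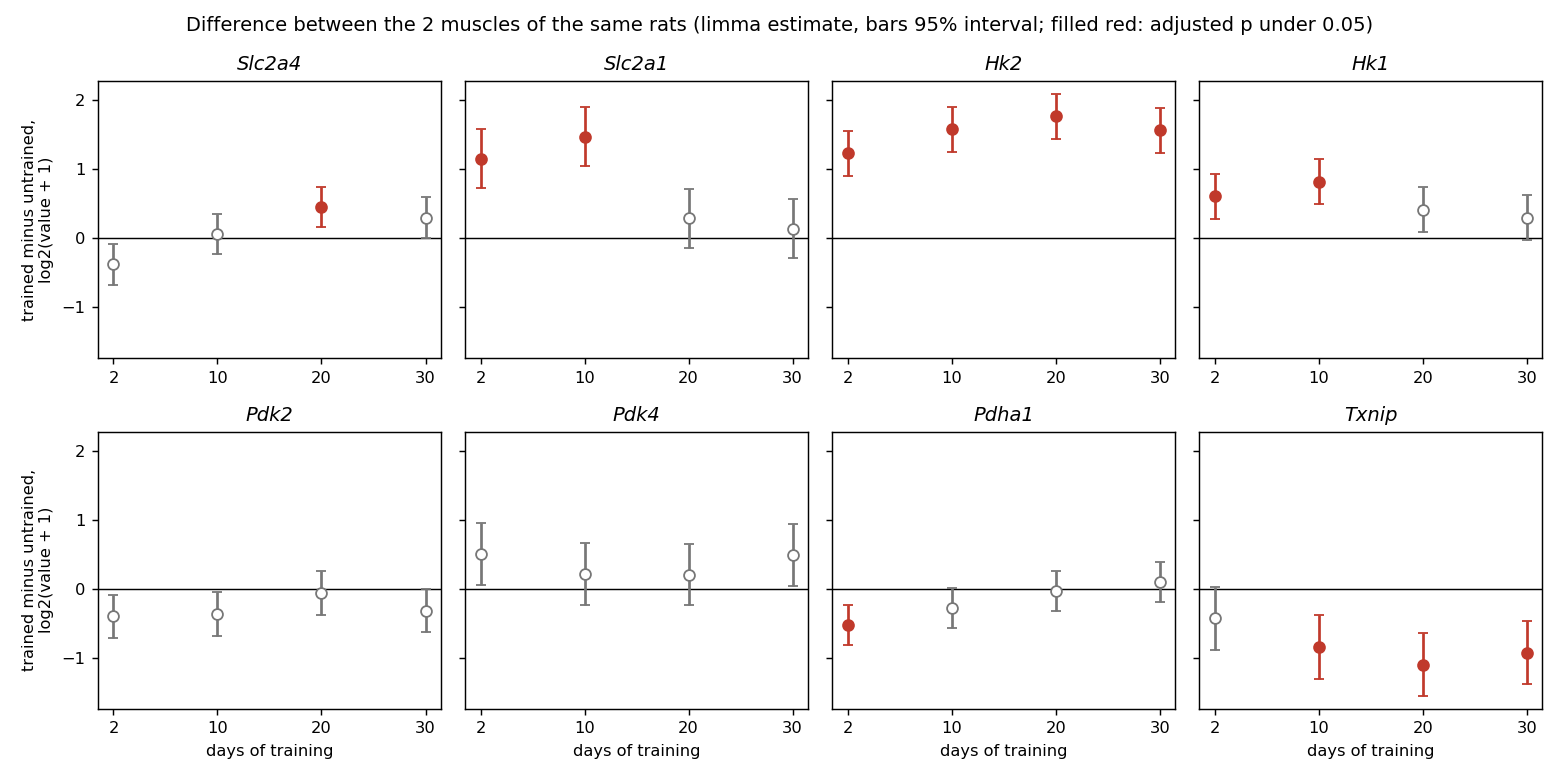
Difference between trained and untrained muscle of the same rats on the log2(value + 1) scale (vertical axis) at 2, 10, 20 and 30 days (horizontal axis, evenly spaced), with 3 rats per point. Points are limma estimates, bars are 95% intervals, and filled red points passed an adjusted p of 0.05; Hk2 passed at each time point and Txnip at 10, 20 and 30 days.

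Hexokinase 2, the muscle form of the enzyme that traps glucose, gave the largest change among the members on the log2(value + 1) scale at each time point. Hk2 (ENSRNOG00000006116, chr4:113559427-113610244, minus strand, Rnor_6.0) measured 28.6, 32.4 and 28.2 in the untrained muscles at 2 days and 86.1, 72.3 and 57.1 in the trained muscles of the same rats. At 10 days it was 24.97, 18.6 and 25.1 untrained against 60.7, 53.7 and 104 trained. All trained muscles lay above all untrained ones. At 20 days Hk2 measured 29.3, 25.6 and 24.8 untrained and 92.0, 103 and 84.4 trained, and at 30 days 24.1, 24.8 and 22.4 untrained and 78.4, 68.7 and 70.1 trained. The lowest of the 12 trained muscles, at 53.7, stood above the highest of the 12 untrained muscles, at 32.4. Hk2 rose by 1.23, 1.58, 1.77 and 1.57 on the log2 scale at 2, 10, 20 and 30 days, each with an SE of 0.15 and the least significant with adjusted p = 0.000101. The difference in this rise between 30 and 2 days was 0.34 with a 95% interval of -0.13 to 0.80 and did not pass (adjusted p = 0.423). An exact sign-flip permutation test over the 12 pairs, two-sided, gave p = 0.000488, the smallest it can give.

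Hk1 (ENSRNOG00000046891, chr20:31912262-31956650, minus strand, Rnor_6.0), the hexokinase of most other tissues, was far less abundant and was also higher in the trained muscle of 12 of 12 rats. The untrained muscles ranged from 1.45 to 2.17 and the trained ones from 2.12 to 4.98, and within each time point the groups did not overlap. Hk1 rose by 0.61 ± 0.15 (SE) at 2 days (adjusted p = 0.0112) and by 0.82 at 10 days (adjusted p = 0.00181), and its differences of 0.41 at 20 days (adjusted p = 0.0756) and 0.30 at 30 days (adjusted p = 0.225) did not pass. Without rat 2 of the 2-day group, in which it was highest, the 2-day difference was 0.37 and no longer passed (adjusted p = 0.163), and the difference at 20 days passed (adjusted p = 0.0339). The share of Hk2 in the sum of both hexokinases was 92.4% to 95.3% untrained and 96.5% to 97.6% trained at 20 and 30 days, with trained above untrained. The 2 groups overlapped at 2 days (93.0% to 94.7% against 93.6% to 96.4%), when the share was lower in the trained muscle of rat 2, and at 10 days (90.4% to 94.1% against 93.2% to 96.6%).

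Slc2a1, which encodes GLUT1, rose at 2 and 10 days and did not pass the test at 20 and 30 days. Slc2a1 (ENSRNOG00000007284, chr5:138154673-138182898, plus strand, Rnor_6.0) measured 0.663, 1.11 and 0.774 untrained and 2.04, 3.49 and 4.04 trained at 2 days. At 10 days it was 0.676, 0.357 and 0.310 untrained and 2.92, 3.96 and 2.27 trained. Every trained muscle of these days stood above the untrained muscles. At 20 days it was 1.02, 0.528 and 0.225 untrained and 0.952, 0.803 and 0.949 trained, and at 30 days 0.702, 0.208 and 0.856 untrained and 0.484, 0.983 and 0.717 trained. The groups overlapped at both late time points. Slc2a1 rose by 1.16 ± 0.20 (SE, adjusted p = 0.00118) at 2 days and by 1.47 (adjusted p = 0.000207) at 10 days. It passed the filter only with the trained muscles of these days, so these p-values are a description and no independent support. This scale understates the change of so low a gene: the mean trained level was 3.75 and 6.81 times the untrained mean. These ratios divide by untrained means of only 0.850 and 0.448, and single pairs ranged from 3.08 to 5.22 and from 4.32 to 11.1. Its differences of 0.29 at 20 days (adjusted p = 0.354) and 0.13 at 30 days (adjusted p = 0.716) did not pass. The change at 30 days minus that at 2 days was -1.02 on the log2 scale (95% interval -1.62 to -0.42), which missed the threshold over all genes (adjusted p = 0.0685). It passed on the values as deposited (-1.18, adjusted p = 0.0402), without rat 1 of the 2-day group (-1.16, adjusted p = 0.0481) and without rat 2 of the 30-day group (-1.31, adjusted p = 0.0486).

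In unsorted muscle tissue a change in the share of a cell type cannot be told apart from a change in RNA per cell. This bears most on genes as low as Slc2a1 and Hk1, which other cells of muscle also express. Macrophage markers rose in 6 of 6 cases at 2 days, 5 of 6 at 10 days and 6 of 6 at 20 and at 30 days, and their summed level was 4.24 to 13.6 in untrained and 14.4 to 40.9 in trained muscles. Fibroblast markers rose in 6 of 6 cases at 2 and 10 days and 5 of 6 at 20 and 30 days, with sums of 89.7 to 276 untrained and 321 to 1021 trained. Endothelial markers passed in 0 of 6 cases at 2 days, when their sum was 48.5 to 51.6 untrained and 43.8 to 46.7 trained, and 3 of 6 rose at 10 and at 20 days and 1 of 6 at 30 days. Of 5 tested Schwann and perineurial markers 0 passed at 2 or 10 days, and the sum of the list was 4.79 to 22.4 untrained and 4.05 to 19.3 trained. Macrophage and fibroblast sums stayed raised at 20 and 30 days, when the trained and untrained ranges of Slc2a1 overlapped and those of Hk1 did not. Of all markers in these 4 lists Sox10 and Pmp2 were near 0, with means of 0.106 and 0.138. The macrophage marker Adgre1 was also low, with a mean of 0.707. The part of these cell types in the rise of Slc2a1 and Hk1 was not tested.

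Slc2a4, the gene of GLUT4, lay lower in trained than in untrained muscle at 2 days and higher at 20 and 30 days. Slc2a4 (ENSRNOG00000017226, chr10:56552983-56558488, minus strand, Rnor_6.0) measured 180, 204 and 202 untrained and 177, 122 and 155 trained at 2 days, and 193, 186 and 180 untrained and 179.8, 225 and 183 trained at 10 days. At 20 days it was 182, 176 and 161 untrained and 248.5, 250.3 and 213 trained, and at 30 days 174, 184 and 177 untrained and 231, 242 and 189.5 trained. The trained muscles stood below the untrained ones at 2 days and above them at 20 and 30 days, and the groups overlapped at 10 days. The difference was -0.38 ± 0.14 (SE, adjusted p = 0.0627) at 2 days, 0.06 (adjusted p = 0.786) at 10 days, 0.45 (adjusted p = 0.0365) at 20 days and 0.30 (adjusted p = 0.18) at 30 days, so that the gene rose by the test at 20 days. The 20-day call was lost without any 1 of the 3 rats of that group (0.42 to 0.47, adjusted p up to 0.158), without rat 3 of the 2-day group (adjusted p = 0.0503), on the values as deposited (0.36, adjusted p = 0.167) and with a pseudocount of 0.1 (adjusted p = 0.0523). Without rat 1 of the 2-day group, whose muscles differed least, the 2-day difference passed (-0.56, adjusted p = 0.018), and without rat 2 it was -0.20 (adjusted p = 0.476). With all rats it passed with a filter on a mean of at least 10 (adjusted p = 0.0331) and with an intensity trend (adjusted p = 0.0468). It also passed with rat as a random block (adjusted p = 0.0282). Without the block it passed against time-matched controls (adjusted p = 0.0476) and pooled controls (-0.29, adjusted p = 0.0375). The difference between 30 and 2 days was 0.68 with a 95% interval of 0.26 to 1.09 and adjusted p = 0.0752. With 1 rat left out it passed only without rat 1 of the 2-day group (0.86, adjusted p = 0.022), and at its lowest it was 0.50. The share of mitochondrially encoded mRNA in the deposited signal also differed between the legs: it was lower in the trained muscle of 3 of 3 rats at 2 days (24.9% to 28.5% against 27.8% to 31.7%) and at 10 days (23.4% to 27.4% against 28.0% to 31.6%), and higher in 3 of 3 at 20 days (31.1% to 35.5% against 29.6% to 32.7%) and 2 of 3 at 30 days (39.9% to 43.9% against 29.7% to 43.7%). Its part in the differences of Slc2a4, and of Pdha1 below, was not tested. The untrained muscles stayed between 161 and 204 for Slc2a4 throughout (F test among the 4 untrained groups, adjusted p = 0.744).

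Txnip fell in trained muscle, and in 12 of 12 rats it was lower than in the other leg. Its protein binds thioredoxin and GLUT transporters, and the gene is switched on by glucose products through the Mondo factors. Txnip (ENSRNOG00000021201, chr2:198683159-198686975, plus strand, Rnor_6.0) measured 234, 247 and 208 untrained and 204, 149.6 and 162 trained at 2 days, and 286, 279 and 261 untrained and 179, 184 and 108 trained at 10 days. At 20 days it was 249.3, 265 and 281 untrained and 133, 89.8 and 156 trained, and at 30 days 167, 228 and 322 untrained and 133, 121 and 110 trained. At no time point did the 2 groups overlap, although the untrained muscles at 30 days spread widely, with an SD of 78.1 against 12.8 to 20.2 at the other time points. Txnip fell by 0.84 ± 0.21 (SE, adjusted p = 0.0129) at 10 days, by 1.10 (adjusted p = 0.00324) at 20 days and by 0.92 (adjusted p = 0.0133) at 30 days on the log2 scale, while its difference of -0.42 at 2 days did not pass (adjusted p = 0.175). The call at 10 days was lost without rat 3 of that group (-0.63, adjusted p = 0.117) and on the values as deposited (-0.76, adjusted p = 0.0687), and that at 30 days without rat 2 (-0.94, adjusted p = 0.0689) or rat 3 (-0.62, adjusted p = 0.13) of the 30-day group. The fall was not shown to differ between 30 and 2 days (-0.50, 95% interval -1.15 to 0.15, adjusted p = 0.396). The exact sign-flip permutation test over the 12 pairs gave p = 0.000488, the smallest it can give.

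Pdha1, the regulated E1 alpha subunit of pyruvate dehydrogenase, fell at 2 days and did not pass the test at any later time point. Pdha1 (ENSRNOG00000025383, chrX:37329779-37343411, plus strand, Rnor_6.0) had 2 transcripts, of which one held nearly all of the signal, with a mean of 206 against 0.66. It measured 208, 222 and 227 untrained and 185, 122 and 156 trained at 2 days, and 245, 229 and 224 untrained and 189.9, 171 and 216 trained at 10 days. The groups did not overlap on these days, and they did at 20 days (203, 186 and 229 untrained, 223, 175 and 210.1 trained) and at 30 days. Pdha1 fell by 0.52 ± 0.13 (SE) at 2 days (adjusted p = 0.0142). Its differences were -0.28 (adjusted p = 0.167) at 10 days, -0.03 (adjusted p = 0.923) at 20 days and 0.09 (adjusted p = 0.708) at 30 days. The 2-day call was lost without rat 2 (-0.35, adjusted p = 0.182) or rat 3 (-0.51, adjusted p = 0.0767) of that group and on the values as deposited (-0.38, adjusted p = 0.10). The mean over 12 pairs, -0.18 ± 0.07 (SE, adjusted p = 0.0416, higher in 4 of 12 rats), was lost when any of 8 of the 12 rats was left out, namely rats 2 and 3 of the 2-day group, 1 and 2 of the 10-day group, 2 and 3 of the 20-day group and 1 and 2 of the 30-day group (-0.18 to -0.14, adjusted p up to 0.101), and on the values as deposited (adjusted p = 0.076) or with a pseudocount of 0.1 (adjusted p = 0.0545). The exact sign-flip permutation test gave p = 0.0625. The difference between 30 and 2 days was 0.62 (95% interval 0.21 to 1.03, adjusted p = 0.0977). With 1 rat left out it passed only without rat 1 of the 2-day group (0.79, adjusted p = 0.0294).

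Of the pyruvate dehydrogenase kinases, Pdk2 fell and Pdk4 rose when averaged over the 12 rats, and neither passed at any single time point in the design used. Their promoters are shown because the 2 genes encode the same activity and moved in opposite directions, with that of Hk2, the member with the largest rise on the log2(value + 1) scale. The 250 bases before the start of the gene are from RefSeq, rat build GRCr8, in lower case from 5′ to 3′ in the direction of the gene, and capitals mark a motif that was searched for on both strands.
Pdk2 promoter, chr10:80483913-80484162, minus strand: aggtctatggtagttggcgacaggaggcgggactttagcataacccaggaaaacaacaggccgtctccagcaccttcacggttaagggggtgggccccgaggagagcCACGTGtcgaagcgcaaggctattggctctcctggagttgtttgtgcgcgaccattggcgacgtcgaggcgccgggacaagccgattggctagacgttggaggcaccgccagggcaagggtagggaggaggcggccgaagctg
Pdk4 promoter, chr4:34568330-34568579, minus strand: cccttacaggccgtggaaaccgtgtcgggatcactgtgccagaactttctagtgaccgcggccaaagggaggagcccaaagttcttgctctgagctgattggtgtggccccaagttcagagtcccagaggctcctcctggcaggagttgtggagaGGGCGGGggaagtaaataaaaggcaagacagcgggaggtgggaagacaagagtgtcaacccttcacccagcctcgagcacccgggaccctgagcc
Hk2 promoter, chr4:116841276-116841525, minus strand: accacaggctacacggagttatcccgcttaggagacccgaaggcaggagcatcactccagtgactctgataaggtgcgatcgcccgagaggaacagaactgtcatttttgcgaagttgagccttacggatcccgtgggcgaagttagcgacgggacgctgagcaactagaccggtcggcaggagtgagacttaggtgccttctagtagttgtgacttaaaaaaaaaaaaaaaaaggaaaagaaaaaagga
The capitals are a CACGTG E-box, the core that Mondo and Myc proteins can bind, 143 bases before the start of Pdk2, and a GGGCGGG box, as Sp1 can bind, 95 bases before that of Pdk4. CACGTG was found in 5.59% and GGGCGGG in 20.95% of 33469 promoter windows of this length. The Hk2 window held none of the 7 motifs searched (CACGTG, the FoxO core GTAAACA, the CRE TGACGTCA, the AP-1 site TGACTCA, the Sp1 box GGGCGGG, the glucocorticoid response element and the direct repeat of the PPARs). RefSeq windows, 7 in all, were matched for 6 of the 8 members, and GGGCGGG also lay in that of Slc2a1. For Hk1 it lay in the window chr20:30842073-30842322, while the other Hk1 window, chr20:30874815-30875064, held none of the motifs. A match is a description of the letters.

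Pdk2 (ENSRNOG00000004172, chr10:82839153-82852661, minus strand, Rnor_6.0) was lower in the trained muscle of 11 of 12 rats. It ranged from 103 to 137 in untrained and from 75.2 to 130.5 in trained muscles, and the groups did not overlap at 2 and 30 days. Its differences were -0.40 (adjusted p = 0.0679) at 2 days, -0.37 (adjusted p = 0.0966) at 10 days, -0.06 (adjusted p = 0.814) at 20 days and -0.31 (adjusted p = 0.191) at 30 days, and over the 12 pairs it fell by 0.29 ± 0.07 (SE, adjusted p = 0.00627; exact sign-flip permutation test, p = 0.00391). Without rat 1 of the 2-day group the 2-day difference passed (-0.58, adjusted p = 0.0242), and without rat 2 it was -0.26 (adjusted p = 0.422). It also passed with a filter on a mean of at least 10 (adjusted p = 0.0363). Against the 12 pooled contralateral muscles Pdk2 passed at 2 days (-0.35, adjusted p = 0.0467) and at 10 days (-0.47, adjusted p = 0.00753).

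Pdk4 (ENSRNOG00000009565, chr4:30546664-30556815, minus strand, Rnor_6.0) differed most between days: its mean in untrained muscle was 65.9 ± 15.6 (SD, n = 3) at 2 days and 249.4 ± 39.4 at 10 days, while the mean of trained muscle was at most 1.498 times the untrained mean of the same day. The untrained muscles measured 68.3, 80.2 and 49.3 at 2 days, 214, 292 and 242 at 10 days, 167, 119 and 151 at 20 days, and 128, 175 and 125 at 30 days. The 2-day muscles lay below those of every later day, and the 10-day muscles above all others. The trained muscles measured 152, 78.3 and 66.3 at 2 days, 332, 271 and 261 at 10 days, 162, 154 and 185 at 20 days, and 179, 322 and 135 at 30 days, and they overlapped the untrained ones at each time point. Over 12 pairs Pdk4 rose by 0.35 ± 0.10 (SE, adjusted p = 0.0138, higher in 9 of 12 rats; exact sign-flip permutation test, p = 0.00684), a call that was lost without rat as a block (adjusted p = 0.0503). At single time points its differences were 0.51 (adjusted p = 0.0972), 0.21 (adjusted p = 0.523), 0.21 (adjusted p = 0.54) and 0.49 (adjusted p = 0.15). They rest on single rats: with 1 rat left out the Pdk4 difference was 0.19 to 0.78 at 2 days (without rat 1 and without rat 2), 0.00112 to 0.37 at 10 days (without rat 1 and without rat 2), 0.13 to 0.33 at 20 days (without rat 2 and without rat 1) and 0.30 to 0.68 at 30 days (without rat 2 and without rat 3).

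The choice of control set the value of Pdk4 at a single day. Against the 12 contralateral muscles taken as 1 group, as the study compared them, the difference at 10 days was 1.09 and passed (adjusted p = 0.0324), and that at 2 days was -0.54 (adjusted p = 0.30), where the own contralateral muscle gave 0.21 and 0.51, values that 1 rat could move as far as given above. Among the 4 untrained groups Pdk4 was the 1 member that passed a limma F test (adjusted p = 0.017), where 0.0625% of all genes did and 10.7% had an unadjusted p under 0.05. This call was lost without the untrained muscle of rat 1 (adjusted p = 0.114) or rat 3 (adjusted p = 0.0718) of the 2-day group or of rat 2 of the 10-day group (adjusted p = 0.0703), with a pseudocount of 0.1 (adjusted p = 0.059) and with no filter (adjusted p = 0.0655). Among the other genes that passed were 3 clock genes (Ciart, Dbp and Arntl), the muscle ubiquitin ligase Fbxo32 and AABR07044759.1, named here after their values were seen. Dbp, a clock output gene, was 25.8 to 57.4 in the untrained muscles at 2 days and 4.66 to 11.4 later, and Arntl, a core clock gene, was 1.90 to 4.70 at 2 days and 7.84 to 13.5 later. The part of the clock or of feeding in the levels of Pdk4 was not tested. Of 12 tested other PPAR target genes of muscle 0 passed this F test, the lowest adjusted p being 0.20 for Ucp3, an inner mitochondrial membrane carrier, which measured 19.7 to 56.0 at 2 days, 101 to 115 at 10 days, 70.1 to 81.0 at 20 days and 47.8 to 89.7 at 30 days.

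**Figure D3:**
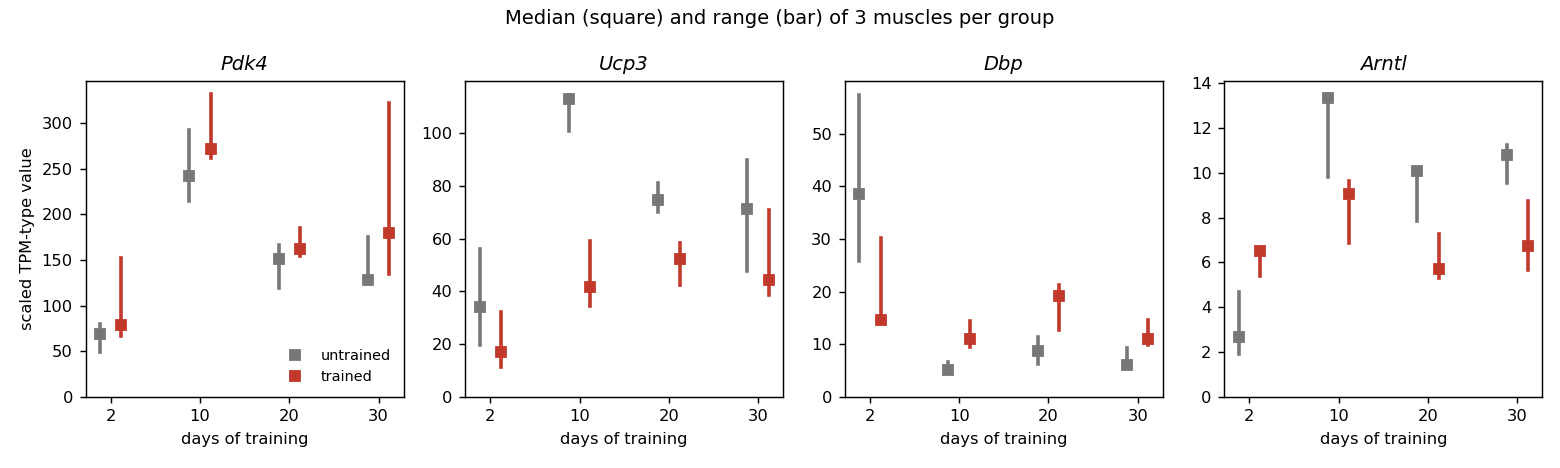
Level of Pdk4, of the PPAR target Ucp3 and of the clock genes Dbp and Arntl (vertical axes, scaled TPM-type value, from 0) at 2, 10, 20 and 30 days in untrained (grey) and trained (red) muscle. Squares are medians and bars the range of 3 muscles; untrained Pdk4 is lowest at 2 days and highest at 10 days, as is Ucp3, while Dbp is highest at 2 days.

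Pdk4 made up 26.5% to 38.0% of the summed transcripts of Pdk1 to Pdk4 in untrained muscle at 2 days, 64.9% to 69.1% at 10 days, 48.2% to 55.6% at 20 days and 45.4% to 56.2% at 30 days. In trained muscle its share was 40.7% to 53.7%, 68.7% to 78.8%, 52.1% to 64.9% and 55.8% to 74.7%. The groups overlapped at 10, 20 and 30 days and not at 2 days. Pdk1 was the third kinase by level, at 9.01 to 16.5 untrained, and Pdk3 lay under 1 in every untrained muscle and did not pass the filter.

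Besides Pdha1, the E1 beta and E3 subunits of the pyruvate dehydrogenase complex and a pyruvate carrier subunit passed the test at 2 days. Of 14 tested genes of the complex, its other kinases, phosphatases and the pyruvate carriers, 0 rose and 3 fell at 2 days, when 9.8% of all genes fell: Pdhb, the E1 beta subunit, by 0.49 (adjusted p = 0.0399), Dld, the shared E3 subunit, by 0.47 (adjusted p = 0.0254), and Mpc1, a subunit of the mitochondrial pyruvate carrier, by 0.57 (adjusted p = 0.0388). The subunit genes Dlat (-0.27, adjusted p = 0.155) and Pdhx (-0.34, adjusted p = 0.0936) did not pass. All 3 calls were lost without rat 2 of the 2-day group, when Pdhb was -0.25, Dld -0.28 and Mpc1 -0.32 (adjusted p = 0.404, 0.29 and 0.372), without rat 3 of that group (adjusted p = 0.0866, 0.0848 and 0.101) and on the values as deposited (adjusted p = 0.191, 0.20 and 0.0633). The Pdhb call was also lost without rat 2 or 3 of the 20-day group or rat 2 of the 30-day group (adjusted p up to 0.0508), with a pseudocount of 0.1 (adjusted p = 0.0593) and with the highest transcript per gene (adjusted p = 0.0781), and the Mpc1 call with that pseudocount (adjusted p = 0.0608) and with no filter (adjusted p = 0.0516). The median of the list was -0.33 at 2 days and 0.11 at 30 days, against -0.02 and -0.01 over all genes. The change between 30 and 2 days was upward and passed in 3 of 14 (1.35% of all genes): Mpc2, the other carrier subunit, by 1.08 (adjusted p = 0.0199), Pdhb by 0.97 (adjusted p = 0.0364) and Dld by 0.82 (adjusted p = 0.0409). On the values as deposited the median change of all genes between 30 and 2 days was -0.21, and the calls of Pdhb and Dld between 30 and 2 days were lost in 7 and 9 of 12 omissions of 1 rat. Over 12 pairs 1 of 14 rose, Mpc2 by 0.22, and 3 fell: Pc, pyruvate carboxylase, by 0.55, Pdk1 by 0.25 and Lias, lipoic acid synthase, by 0.21, of which Mpc2 and Lias were lost in 8 and 7 of 12 omissions. Among 6 tested genes of the lactate branch, Bsg, the chaperone of lactate transporters, rose by 0.46 and the transporter Slc16a1 by 0.18, and the lactate dehydrogenases Ldhb, Ldhd and Ldha fell by 0.61, 0.35 and 0.24 over 12 pairs. The Slc16a1 call was lost without the block (adjusted p = 0.0674 and 0.0585) and on the values as deposited (adjusted p = 0.0906).

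Genes around GLUT4 moved both ways. Of 28 tested genes of GLUT4 traffic and insulin or contraction signalling 8 rose and 8 fell over 12 pairs, with a median of -0.08, where 21.2% of all genes rose and 22.2% fell; these shares are also the background of the other lists over 12 pairs. Irs2, an adaptor of the insulin receptor, rose by 2.82 ± 0.12 (SE, adjusted p = 1.14e-09), and Tbc1d1, a Rab GTPase-activating protein that holds GLUT4 vesicles back until contraction, rose by 1.01 (adjusted p = 7.26e-08). Its relative Tbc1d4 (AS160), the insulin-side brake, fell by 0.82 (adjusted p = 1.1e-05). Tbc1d1 was higher in the trained muscle of 12 of 12 rats and Tbc1d4 in 0 of 12. Rab13, a small GTPase of vesicle traffic, rose by 0.75, and Sort1, the sorting receptor of GLUT4 vesicles, fell by 0.86. Prkag3, the AMPK gamma subunit of fast fibres, fell by 1.31 (adjusted p = 5.47e-09), and its fall was larger at 30 than at 2 days (difference -1.46 on the log2 scale, adjusted p = 0.0021). Of 13 listed other hexose transporters and hexokinases 4 were tested and 0 passed at any time point or over the 12 pairs, and over the 12 pairs limma gave an unadjusted p under 0.05 for 1 of them, the fructose transporter gene Slc2a5.

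**Figure D4:**
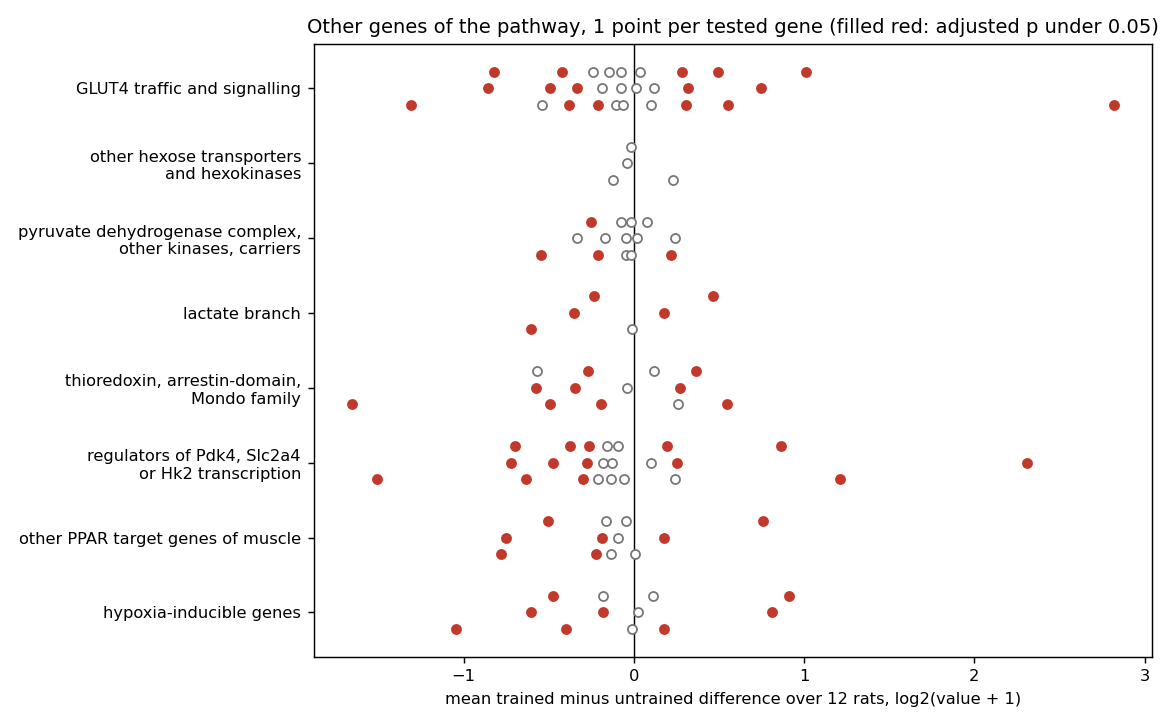
Mean difference between trained and untrained muscle over 12 rats on the log2(value + 1) scale (horizontal axis) for each tested gene of 8 lists (rows), without the 8 members. Filled red points passed an adjusted p of 0.05; the point farthest right is Irs2 at 2.82, and the farthest left Arrdc2 at -1.66.

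The arrestin-domain relatives of Txnip did not move as one. Of 13 tested genes of the thioredoxin, arrestin-domain and Mondo list, 3 rose and 6 fell over 12 pairs, with a median of -0.19. Arrdc2 fell by 1.66 (adjusted p = 0.000308, higher in 0 of 12 rats), whereas Arrdc4, the closest relative of Txnip and like it a Mondo target, rose by 0.55 (adjusted p = 5.25e-05, higher in 12 of 12 rats). Arrdc1 rose by 0.36 and Txnrd3, a thioredoxin reductase, by 0.27 (lost with the highest transcript per gene, adjusted p = 0.138), while the mitochondrial reductase Txnrd2 fell by 0.58 and Mlxip, which encodes MondoA, by 0.49.

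Of 23 tested regulators known to act on Pdk4, Slc2a4 or Hk2, 5 rose and 9 fell over 12 pairs (median -0.16). Myc, a growth factor-induced transcription factor, rose by 2.31, Ppargc1a (PGC-1 alpha), a coactivator of mitochondrial genes, by 1.21 and Hif1a, of the hypoxia response, by 0.86. Srebf1, which insulin induces, fell by 1.51, Rxra, the partner receptor of the PPARs, by 0.72 and Klf15 by 0.70. All 6 passed with an adjusted p of at most 0.000494.

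Of 12 tested other PPAR target genes, with which Pdk4 is usually grouped, 1 rose and 7 fell at 2 days. The median was then -0.58, and 11.8% of all genes rose and 9.8% fell. With 1 rat left out the 2-day difference was -1.93 to -1.17 for Fabp3, -0.83 to -0.38 for Acadm and -0.81 to -0.37 for Cpt1b. Over all genes 968 passed at 2 days without rat 2 of that group, against 2417 with it. On the values as deposited 79.1% of all 2-day calls were higher, against 54.6% otherwise. Over 12 pairs 2 of the 12 genes rose and 5 fell (median -0.15), where 21.2% and 22.2% of all genes did. Plin2, a coat protein of lipid droplets, rose by 0.76 and Cpt1a by 0.18 (lost without the block, adjusted p = 0.0605 and 0.0633, and on the values as deposited, adjusted p = 0.0783), and Ucp3 fell by 0.78, Angptl4, a lipoprotein lipase inhibitor, by 0.75 and Fabp3, the muscle fatty acid-binding protein, by 0.50. Of 12 tested hypoxia-inducible genes 3 rose and 5 fell (median -0.10). Adm, Vegfa and Ndrg1 rose by 0.91, 0.81 and 0.18, of which Ndrg1 was lost with rat as a random block, that is with an estimated correlation (adjusted p = 0.0832), without the block (adjusted p = 0.14 and 0.123), on the values as deposited (adjusted p = 0.0628) and without rat 3 of the 2-day or rat 2 of the 20-day group (adjusted p = 0.0526 and 0.0581), and the glycolytic regulator Pfkfb3, the collagen hydroxylase P4ha1 and the oxygen sensor Egln3 fell by 1.05, 0.60 and 0.47.

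The genes whose 12 paired differences were most like those of a member are given as a description, since the points share animals and time points. Among 3840 genes with a mean of at least 10, Pearson's r over 12 rats with Slc2a4 was highest for Slc25a4 (0.965), the adenine nucleotide carrier, Pgam2 (0.956) and Ndufv1 (0.955). Pdha1 was most like Ugp2 (0.985), Idh3a (0.970) and Amd1 (0.970), and the leading values of these 2 members were above those of the other 6. Hk1 was most like the collagen genes Col6a1 (0.907) and Col6a2 (0.906) and Smarce1 (0.872), and Slc2a1 was most like Hspb7 (0.862) and Slain2 (0.838). For Hk2 the genes were Cd24 (0.881), Gde1 (0.857) and Vtn (0.845), for Pdk4 Lpin1 (0.879), Prpf8 (0.858) and Miga2 (0.795), for Pdk2 Smyd2 (0.868), Palmd (0.859) and Grhpr (0.847), and for Txnip Uri1 (0.826), AC120310.1 (0.825) and Pdcd7 (0.802).

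The samples were muscle by their markers, with a summed level of 7 fibre genes such as Ckm and Acta1 of 70894 to 84570 in untrained and 50546 to 88563 in trained muscles, and 5 of the 7 fell over 12 pairs. The markers of adipocytes (sum up to 11.5), satellite cells (up to 8.28), red cells (up to 1145) and smooth muscle (up to 96.7) rose in 1 of 3, 2 of 2, 0 of 4 and 3 of 4 tested cases over the 12 pairs. The satellite cell marker Pax7 (mean 0.269) did not pass the filter, and Cdh15 passed the test narrowly (limma, adjusted p = 0.0494). Plin1, Myf5 and Cnn1, among those that rose, had means of 0.638, 0.705 and 0.815, under the filter value of 1. Which muscles brought them past the filter was not examined. Mitochondrially encoded mRNA took 23.4% to 43.9% of the deposited signal, and the untrained muscle of rat 1 at 30 days stood apart from the other untrained muscles at 43.7% against at most 34.6%, at a share like that of the 3 trained muscles of 30 days. Without that rat 2 members passed at 30 days, as with it. Its levels were within the range of the other untrained muscles for Slc2a4, Slc2a1, Hk1, Hk2, Pdk4 and Pdha1, while its Txnip level was the lowest of the 12 and its Pdk2 level the highest.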

How the data were processed

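RNA was measured in 24 tibialis anterior muscles of 12 rats, in 4 trained and 4 contralateral groups of 3. The authors enriched poly-A RNA, sequenced strand-specific libraries as paired reads, trimmed them, aligned them with STAR in Partek Flow to Rnor_6.0 and quantified Ensembl transcripts. The authors deposited values for 20027 transcripts, which sum to 634431 in every sample and were therefore taken as TPM-type. Read depth and its counting error are thus unknown, and no count model was run. The submitters' processing notes also name DESeq2. A gene-level table that rescales the same reads and the authors' own comparisons with p-values were not used. Groups came from the sample labels. The design text states 4 animals per time point, and 3 per time point were analysed here. No library pair out of 276 was identical.

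Each sample was rescaled here by its median-of-ratios factor (0.778 to 1.14, from 16230 transcripts above 0 in all samples), summed per gene and put on a log2(value + 1) scale, which understates the change of low genes. Genes that reached 1 in 3 or more samples were kept, 11196 in all. The fit, by limma 3.58.1 (R 4.3.3), had rat as a fixed block and Benjamini-Hochberg adjustment over all tested genes at a threshold of 0.05. An F test in limma compared the untrained groups. Intervals are 95% from the moderated fit. Exact sign-flip permutation tests over 12 pairs were two-sided and unadjusted. The study itself compared trained groups with 12 pooled controls, which is given as an alternative. The legs of a rat are paired by the labels, and the deviations of both muscles from their group means correlated with a median r of 0.174 within rats (12 pairs) and -0.01 between rats (132 pairs).

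Genes named are the 8 members, in each list up to 3 genes that rose and 3 that fell most over 12 pairs among those past the threshold, and for each member the 3 genes of most similar paired differences, with the genes named for 2 days or for 30 against 2 days and for the untrained groups chosen after their values were seen. Some genes that this rule or the test of untrained groups gave are not reported here. The members and lists were chosen with earlier results of these data known. The fit was tested on simulated data. Promoters were the 250 bases before RefSeq starts in GRCr8, a build other than that of the deposited coordinates. Python 3.11.15 with numpy 2.4.6, pandas 2.3.3 and matplotlib 3.10.9 prepared tables and plots. Alternatives were the values as deposited, a pseudocount of 0.1, other filters, the highest transcript per gene, an intensity trend, a threshold of 0.01, other treatments of the block and of the controls, and each rat left out in turn.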

Additional observations from a re-analysis of the deposited data

Results flagged for a closer look

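Slc2a4 was lower in the trained muscle of all 3 rats at 2 days and higher in that of all 3 rats at 20 days and at 30 days. On the log2 scale Slc2a4 differed by only -0.02 in rat 1 at 2 days and by 0.10 in rat 3 at 30 days. Its log2 change at 20 days exceeded that at 2 days by 0.83, a difference that was not tested on its own. Its change at 30 days exceeded that at 2 days by 0.68 (limma, adjusted p = 0.0752), and a test over all 4 time points gave adjusted p = 0.113. Pdha1 was lower in all 3 trained muscles at 2 and at 10 days and higher in all 3 at 30 days. At 30 days Pdha1 differed by only 0.05, 0.02 and 0.21 in the 3 pairs, and the groups overlapped. The mean of 0.09 did not pass (limma, adjusted p = 0.708), so the direction of Pdha1 at 30 days is not settled. Its change at 30 days exceeded that at 2 days by 0.62 (adjusted p = 0.0977) and that at 10 days by 0.37, of which the second was not tested, and over all 4 time points the adjusted p was 0.237. On the values as deposited the 30-day difference of Pdha1 was -0.03. The differences between 30 and 2 days missed the threshold in the design used. Both passed without rat 1 of the 2-day group (adjusted p = 0.022 for Slc2a4 and 0.0294 for Pdha1). They also passed with rat as a random block (0.0266 and 0.0494) and with a filter on a mean of at least 10 (0.0298 and 0.0412). Without the block against pooled controls they passed as well (0.00557 and 0.00473). Neither passed under any other alternative, including the omission of any other rat. With 1 rat left out the difference was 0.50 to 0.86 for Slc2a4 and 0.45 to 0.79 for Pdha1. Groups of 3 were not searched for single outlying samples.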

How the results depend on the processing

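Over 1368 values of single members under an alternative, 1286 kept their direction where called and their side of the threshold, 39 were no longer called, 43 were newly called and 0 reversed with a call on either side. Many of these values could not change direction. The estimate at a time point stays the same when a rat of another time point is left out. It also stays the same under the other threshold, the intensity trend and the random block. The count of reversals is thus no measure of stability. With 3 rats per time point the calls at single time points rest on few animals, and depth limits cannot be computed from these values. On the values as deposited 1 member passed between 30 and 2 days and 1 over the 4 time points, where 0 did otherwise. Of 11262 genes tested on those values 275 and 113 did. This scaling moved the median change of all genes between 30 and 2 days from -0.01 to -0.21. The share of calls that were higher went from 54.6% to 79.1% at 2 days, from 60.2% to 77.8% at 10 days, from 58.6% to 41.9% at 30 days and from 48.1% to 13.5% between 30 and 2 days. With a filter on a mean of at least 10, which leaves out Slc2a1 and Hk1, 2 members passed at 10 days, 2 between 30 and 2 days and 1 over the 4 time points, and the share of higher calls was 37.5%, 40.9%, 43.9% and 47.1% at the 4 time points and 35.6% over all pairs. Under a threshold of 0.01, 2 members passed at 2 days, 1 at 30 days and 0 between untrained groups, and 0 also with a pseudocount of 0.1 or with no filter.

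Rat as a block was the design, and without this replicate block, against time-matched controls, 1 member passed over the 4 time points. Of 11196 genes 142 did so. Without the block and against 12 pooled controls, 7 members passed at 2 days, where 3235 of 11196 genes did. In this setting 4 members passed between 30 and 2 days and 4 over the 4 time points, where 1677 and 1345 genes did. With rat as a random block 3 and 2 members passed in the latter comparisons. The Pdk4 call over 12 pairs was lost without the block (adjusted p = 0.0503 and 0.252). Leaving out 1 rat gave 2 to 6 members at 2 days, 3 to 4 at 10 days, 2 to 4 at 20 days, 1 to 2 at 30 days, 6 to 7 over all pairs, 0 to 3 between 30 and 2 days, 0 to 2 over the time points and 0 to 1 between untrained groups.

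Counts over all genes that moved by over 1.5 times were 838 at 30 days as deposited (1377 otherwise), 150 between 30 and 2 days with a pseudocount of 0.1 (314 otherwise), and over the 4 time points (128 otherwise) 30 with that pseudocount, 69 with no filter and 193 with an intensity trend. The higher filter gave 1409, 1114, 932 and 771 at the 4 time points, 1939 over all pairs, 479 between 30 and 2 days and 271 over the time points, and the threshold of 0.01 gave 1263, 1201, 945 and 532, then 37 and 17. Pooled controls gave 2304 at 30 days, 1677 between 30 and 2 days and 1345 over the time points, and the random block 547 and 393. Omission of 1 rat gave 968 to 2467, 1226 to 2288, 967 to 1989 and 581 to 1416 at the 4 time points, 58 to 683 between 30 and 2 days and 20 to 343 over them. The 7 genes that differed between untrained groups became 4 with a pseudocount of 0.1 or the higher filter, 2 with no filter, 3 at 0.01 and 0 to 12 with 1 rat left out. Of 821 values of the 38 named list genes over 12 pairs 49 were no longer called, all of Lias, Mpc2, Slc16a1, Cpt1a, Ndrg1 or Txnrd3, and 0 reversed. The causes of these shifts were not tested.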
